A study of Mus musculus with 50 samples.

Results

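The 9 genes described here lie in a cluster of zinc finger genes near the end of mouse chromosome 2 (GRCm38 assembly), in a window that runs from the start of Gm14308 at base 176613364 to the end of Zfp931 at base 178078476. They are, in order along the chromosome, Gm14295, Gm14419, Gm14410, Gm14412, Gm14418, Zfp970, Gm14403, Gm14322 and Gm14327. They were chosen from 55487 genes because their transcripts were higher in the frontal cortex of Setd1a+/- mice than in that of wild-type mice. The genotype differences below are therefore a description of the choice, with no test. What was tested is the course of the genes with age within each genotype, whether the genotype difference varied with age, and how the genes varied together among mice of the same age and genotype. All 9 passed the filter on low counts, which left 16330 protein-coding genes. Of the 25 wild-type libraries, 19 were over the minimum of that filter (0.272 CPM) for Gm14419, 17 for Gm14412 and 22 for Gm14327, and all 25 for each of the other genes. Of the 25 Setd1a+/- libraries, 21 were over it for Gm14419 and for Gm14412, and all 25 for each of the other genes.

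KRAB zinc finger proteins are a large family of DNA-binding proteins whose genes have multiplied in tandem arrays in mammals. The tandem zinc fingers read DNA sequence, often within transposable elements, and the KRAB domain recruits TRIM28, which in turn brings in the histone methyltransferase SETDB1 and other silencing factors. SETD1A is one of the enzymes that methylate histone H3 at lysine 4 at active promoters, and individual functions of the 9 genes in the cortex are not well characterized.

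In GENCODE annotation, the coding transcript of each of the 9 genes has an exon of 127 bases directly after the exon that holds the start codon. In genes of this family that short exon encodes most of the KRAB A box. It is shown to let the degree of likeness between the copies be seen. The lines below give it 5′ to 3′ on the strand of the gene, read from the GENCODE transcripts, with capitals where a gene departs from the base most common among the 9.
Gm14295: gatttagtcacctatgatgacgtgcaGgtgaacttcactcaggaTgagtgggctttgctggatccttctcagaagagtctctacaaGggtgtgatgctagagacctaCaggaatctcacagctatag
Gm14419: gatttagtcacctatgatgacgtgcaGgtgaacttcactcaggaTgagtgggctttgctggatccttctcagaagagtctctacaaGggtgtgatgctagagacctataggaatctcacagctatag
Gm14410: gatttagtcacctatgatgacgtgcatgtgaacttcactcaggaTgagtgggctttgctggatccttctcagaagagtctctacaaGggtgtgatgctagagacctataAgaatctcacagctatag
Gm14412: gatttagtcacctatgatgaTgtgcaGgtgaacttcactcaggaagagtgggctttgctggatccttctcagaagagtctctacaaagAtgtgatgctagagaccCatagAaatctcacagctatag
Gm14418: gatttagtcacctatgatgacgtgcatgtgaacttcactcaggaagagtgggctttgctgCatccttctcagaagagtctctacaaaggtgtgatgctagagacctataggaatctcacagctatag
Zfp970: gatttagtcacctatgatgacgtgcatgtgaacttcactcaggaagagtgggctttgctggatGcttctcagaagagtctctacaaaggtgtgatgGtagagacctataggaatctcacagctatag
Gm14403: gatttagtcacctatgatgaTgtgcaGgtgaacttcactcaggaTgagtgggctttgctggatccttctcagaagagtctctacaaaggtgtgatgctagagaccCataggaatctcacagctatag
Gm14322: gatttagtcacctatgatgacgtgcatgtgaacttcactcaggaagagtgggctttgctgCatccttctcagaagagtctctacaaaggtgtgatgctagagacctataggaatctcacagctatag
Gm14327: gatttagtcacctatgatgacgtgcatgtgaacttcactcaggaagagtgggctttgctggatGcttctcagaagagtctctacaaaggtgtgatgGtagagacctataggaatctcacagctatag
These exons were the same in all 9 genes at 115 of 127 positions. The least alike pair shared 93.7% of its bases. The exons of Gm14418 and Gm14322 were identical, as were those of Zfp970 and Gm14327. The genes differed more in what follows this exon. Finger patterns were counted in the longest coding sequence of each gene that starts with ATG. The codon pattern of a C2H2 zinc finger occurred 25 times in Gm14295 and 17 times in Gm14419. It occurred 15 times in Gm14412, 14 in Zfp970, 9 in Gm14410 and in Gm14403, and 8 in Gm14418 and in Gm14322. It did not occur in Gm14327, whose coding sequence of this kind was the shortest of the 9. That sequence holds the KRAB exon and no finger. Gm14327 has 2 annotated coding transcripts, and the count covers 1 of them. Of the 21897 protein-coding genes with an annotated coding sequence, 3.20% held at least 1 such pattern in any coding transcript, a wider search than that for the 9. The exons lie on chromosome 2 of GRCm38 from chr2:176807362-176807488 in Gm14295 to chr2:177904285-177904411 in Gm14327. Gm14410, Gm14412 and Gm14418 are transcribed from the minus strand and the other 6 from the plus strand.

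The sequence upstream of the start site was present in the RefSeq table of GRCm38.p6 for 5 of the 9 genes, and is shown because the 5 stretches are near copies of each other. Each line gives the 250 bases before the RefSeq start, 5′ to 3′ on the strand of the gene, with capitals where a base differs from the aligned base of Zfp970. Bases beyond the ends of the Zfp970 stretch are in lower case, since there is nothing to align them with. In GENCODE, 9 bases of the Zfp970 stretch and 11 of the Gm14403 stretch lie within exons. The stretches lie at chr2:176798350-176798599 (Gm14295, plus strand), chr2:177206497-177206746 (Gm14410, minus strand), chr2:177464492-177464741 (Zfp970, plus strand), chr2:177497976-177498225 (Gm14403, plus strand) and chr2:177759038-177759287 (Gm14322, plus strand).
Gm14295: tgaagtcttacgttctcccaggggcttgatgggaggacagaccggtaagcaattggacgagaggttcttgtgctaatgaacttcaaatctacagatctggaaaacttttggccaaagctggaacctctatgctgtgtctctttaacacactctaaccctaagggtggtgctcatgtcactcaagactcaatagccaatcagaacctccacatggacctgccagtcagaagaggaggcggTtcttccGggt
Gm14410: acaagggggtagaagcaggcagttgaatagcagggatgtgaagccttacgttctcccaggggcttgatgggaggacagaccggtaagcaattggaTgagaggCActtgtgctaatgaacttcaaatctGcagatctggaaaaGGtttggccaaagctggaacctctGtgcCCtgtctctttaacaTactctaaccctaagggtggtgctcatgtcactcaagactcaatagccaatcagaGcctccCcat
Zfp970: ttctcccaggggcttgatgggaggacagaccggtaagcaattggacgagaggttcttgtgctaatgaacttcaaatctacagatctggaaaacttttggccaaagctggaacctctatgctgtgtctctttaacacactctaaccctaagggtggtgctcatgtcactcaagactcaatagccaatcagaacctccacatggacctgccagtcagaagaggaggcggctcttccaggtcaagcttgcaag
Gm14403: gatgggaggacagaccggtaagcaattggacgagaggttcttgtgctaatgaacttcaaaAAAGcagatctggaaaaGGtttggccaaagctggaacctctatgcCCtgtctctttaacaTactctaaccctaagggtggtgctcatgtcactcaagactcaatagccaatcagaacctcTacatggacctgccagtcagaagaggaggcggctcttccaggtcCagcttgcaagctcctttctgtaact
Gm14322: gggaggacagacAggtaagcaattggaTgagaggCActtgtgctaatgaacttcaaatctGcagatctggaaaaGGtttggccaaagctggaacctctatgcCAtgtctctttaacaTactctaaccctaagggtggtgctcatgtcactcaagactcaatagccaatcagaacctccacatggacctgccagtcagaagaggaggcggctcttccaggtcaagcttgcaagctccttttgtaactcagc
Over the aligned columns, identity between 2 of these stretches ran from 93.9% to 99.2%, the highest between Gm14295 and Zfp970. Short promoter motifs were then searched on both strands. The letters CCAAT were found in all 5 stretches, against 33.8% of the 32817 upstream stretches of the same length in the table. The letters TATAAA were found in 0 of the 5 and in 12.4% of all stretches. For GGGCGG the figures were 0 of the 5 and 32.7%. For CACGTG they were 0 of the 5 and 6.02%. As the 5 stretches are near copies of each other, these counts are not 5 independent finds. Like upstream sequence was also present at genes that were not chosen. Apart from Zfp970, 30 genes had an upstream stretch that shared at least 30 consecutive bases with that of Zfp970. Of these, 12 lay in the window of the cluster and 4 were among the 9. The 18 outside the window also lie on chromosome 2. Among them is Zfp967, whose upstream stretch begins at base 176520754, before the window, and was 99.2% identical to that of Zfp970 over the aligned columns. Zfp973, which was not among the 9, was 99.5% identical to Zfp970 over the aligned upstream columns.

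Because the copies are alike, part of 7 of the 9 genes cannot be told from another gene by a single read. Reads were 150 bases long, and stretches of that length were compared between all GENCODE transcripts. None of the stretches of Gm14412 or Gm14403 occurred in another gene. The share of stretches that also occurred in another gene was 6.48% for Zfp970, 27.6% for Gm14418, 37.7% for Gm14295, 44.5% for Gm14327, 60.1% for Gm14322, 68.1% for Gm14410 and 77.5% for Gm14419. Gm14418 and Gm14322 shared stretches mainly with each other, and Gm14295 shared 32.6% of its stretches with Gm14419. The counting command deposited with the files set no option for reads that map to several places, so such reads were not counted. Fragments were read from both ends, so a shared stretch at either end may still be placed by the opposite end. The share of fragments lost to shared sequence was not measured. The values below rest on fragments that could be placed at a single position. No exonic base of the 9 genes overlapped an exon of another annotated gene by position, although the span of Gm14327 overlaps that of Zfp972 on the other strand.

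Frontal cortex was taken from 5 wild-type (WT) and 5 Setd1a+/- (Het) mice at each of embryonic days 14 and 18 (E14, E18) and postnatal days 7, 35 and 70 (P7, P35, P70), and polyadenylated RNA of each mouse was sequenced as 1 library, 50 in all. Het mice carried 1 tm1d loss-of-function allele of Setd1a and came from crosses of heterozygous males with wild-type females. The labels give the strain as C57BL/6NTac, whereas the study's methods describe a mixed background of that substrain and C57BL/6J and male mice. The ages used here are those of the labels, and the methods give both embryonic ages as a fraction of a day later. No agent was given, no transgene or Cre is part of the groups, and WT mice lacked the tm1d allele. Total counts ran from 35507165 to 43907318 per library. The Setd1a count is a total over the exons of the gene, was not split by exon, and so does not check the labels. The paper cites earlier work for a loss of Setd1a protein in the cortex of heterozygous mice. On the log2 scale the Setd1a count was 0.10 higher in Het (standard error 0.025, adjusted p = 0.00679 by edgeR). Xist, transcribed from the inactive X chromosome of females, had 60159 counts in WT replicate 5 at E14 and 55644 in WT replicate 2 at E18, and at most 27 in any other library. Levels are given in CPM, counts relative to the library total after scaling by edgeR's TMM factors. WT replicate 2 at P7 stood apart, with the lowest median correlation with its own group (r = 0.969). Its summed cortical markers (713 CPM) lay below the range of the other 9 P7 libraries (1352 to 1530 CPM). Its choroid plexus markers (608 CPM) and oligodendrocyte lineage markers (1375 CPM) lay above theirs (1.19 to 2.10 and 366 to 422 CPM). Its astrocyte and progenitor markers also lay above (1214 and 200.2 CPM, the others 650.2 to 763 and 82.2 to 149.5 CPM) and its striatal markers below the others (58.1 to 251 CPM).

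These are low-abundance transcripts. Over the WT libraries, Gm14295 ran from 2.49 to 15.5 CPM, Gm14410 from 4.88 to 9.92 CPM and Zfp970 from 2.86 to 8.67 CPM. At the low end, Gm14419 ran from 0.0812 to 1.01 CPM, which rests on 3 to 34 fragments per library, and Gm14327 from 0.151 to 1.41 CPM, or 6 to 49 fragments. Per kilobase of annotated exon, the order of the genes depended on age. At E14 the WT level was 2.48 ± 0.26 RPKM (SD, n = 5) for Gm14410 and 2.43 ± 0.37 for Zfp970, which differed by less than their spread, and 0.919 ± 0.23 for Gm14295. At P70 it was 3.84 ± 0.33 RPKM for Gm14295, 3.62 ± 0.26 for Zfp970, 3.33 ± 0.51 for Gm14410 and 3.15 ± 0.49 for Gm14322. Over all 25 WT libraries the lowest mean was that of Gm14419, at 0.160 ± 0.080 RPKM, followed by Gm14327 (0.476 ± 0.25), Gm14412 (0.543 ± 0.53) and Gm14418 (0.646 ± 0.21). This pooled order does not hold at each age. In WT, Gm14412 had a lower mean than Gm14327 at E14 (0.169 and 0.327 CPM) and a higher one at P35 (1.64 and 0.992 CPM). Reads that map to several places were not counted, while all exonic bases enter the length. RPKM may therefore be lowered more for genes with a larger shared part, among them Gm14410 and Gm14419, which was not measured. In bulk tissue, fewer cells that express a gene and less RNA per cell cannot be told apart.

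**Figure D1:**
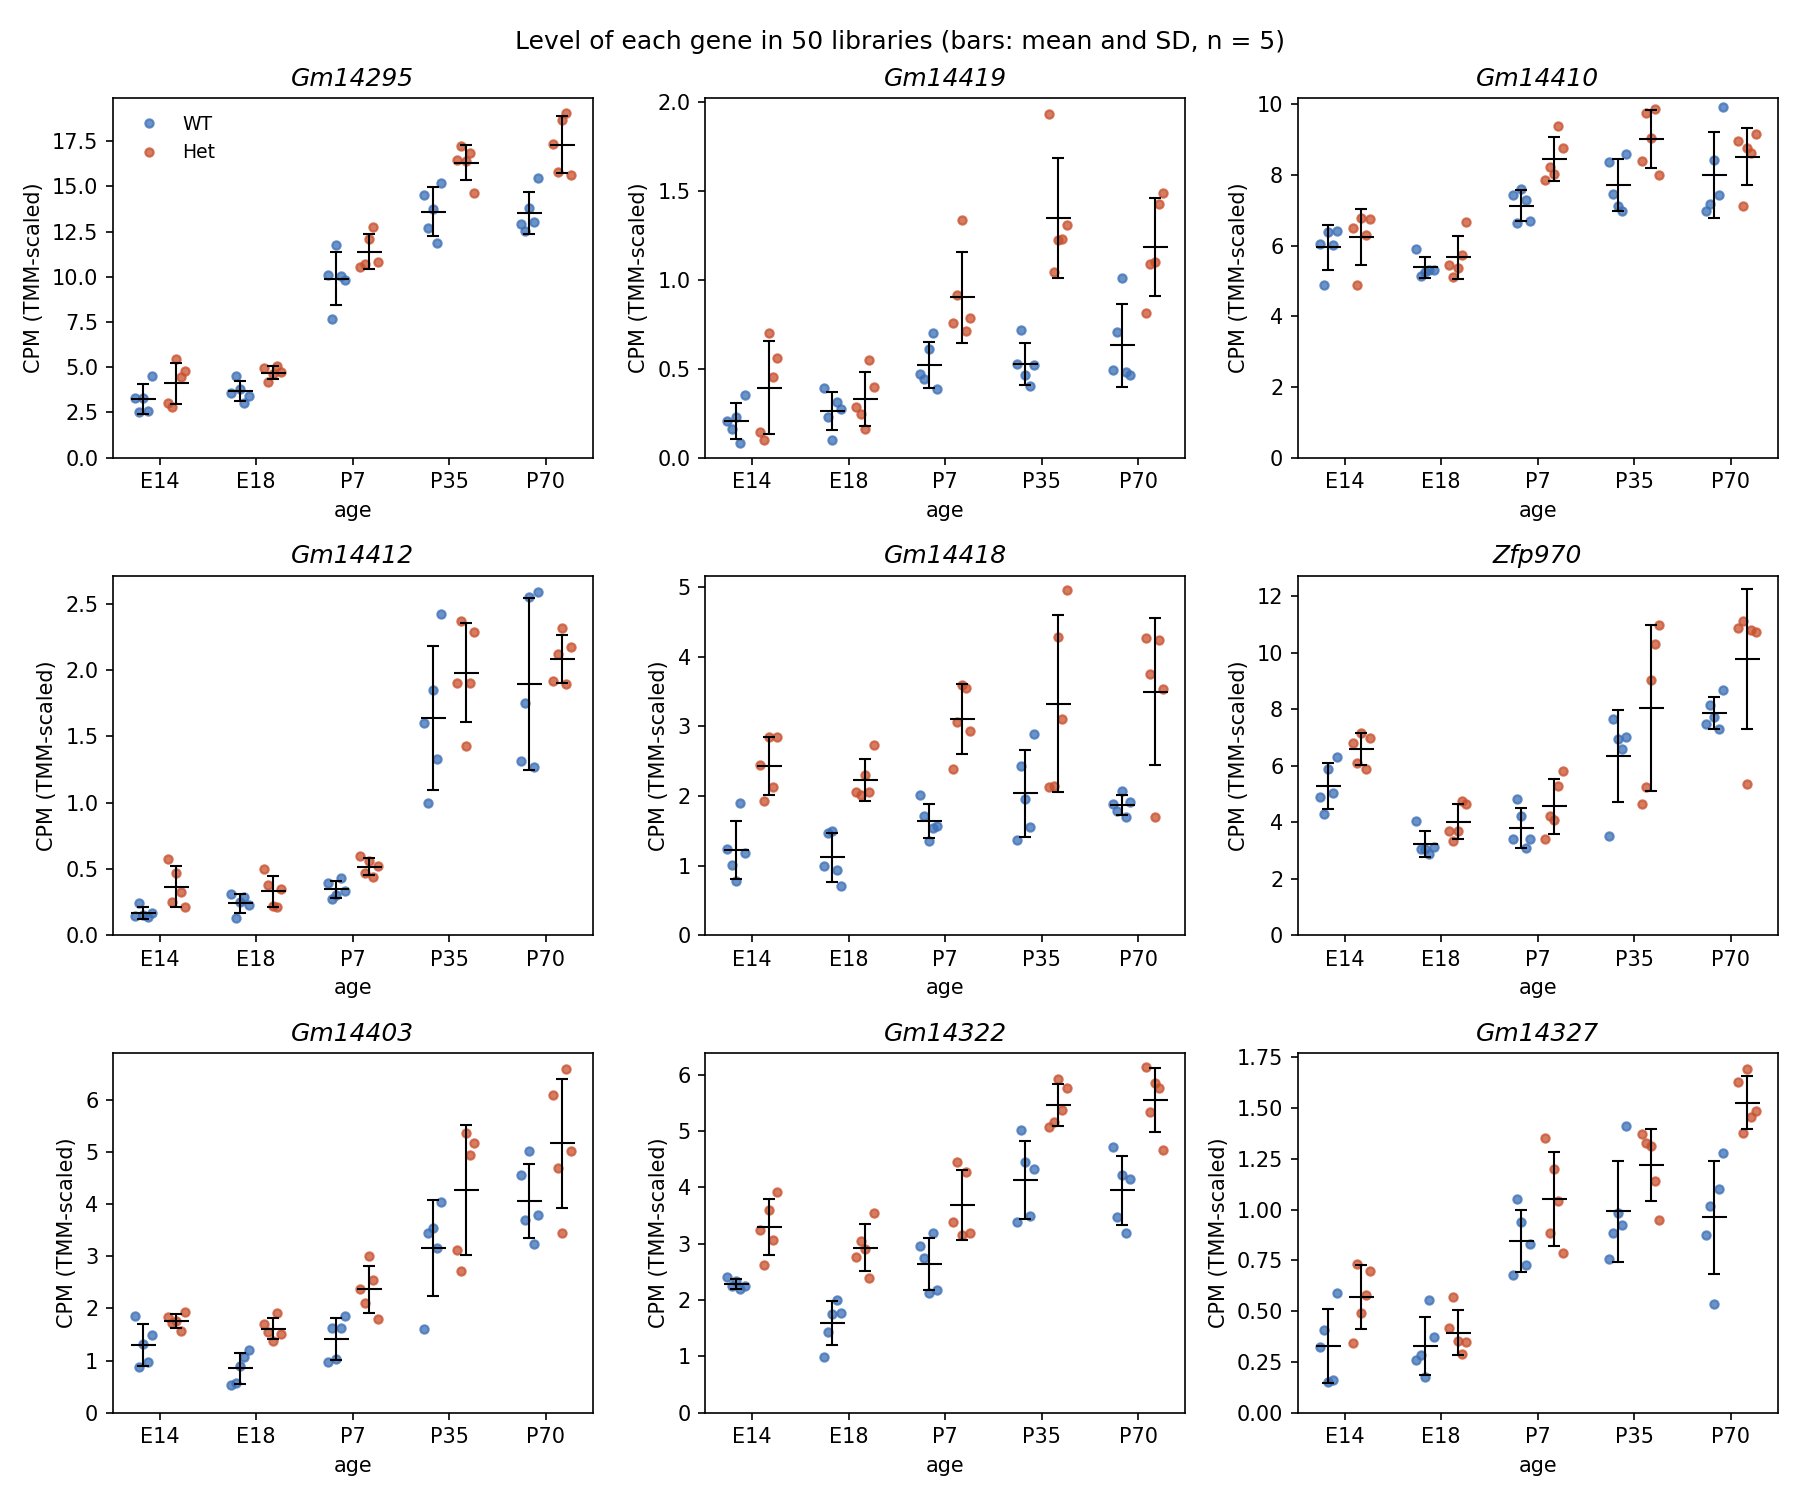
Each panel plots 1 gene as CPM (TMM-scaled, linear axis from 0) against age, with a point per library, WT in blue and Het in red, and bars for the mean and SD of 5 libraries. Each of the 9 genes has a higher Het mean at each of the 5 ages, and most panels climb from E18 to P35.

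The difference that chose the genes was largest for Gm14418 and Gm14419 and smallest for Gm14410. In the model with age, Het exceeded WT on the log2 scale by 0.90 (standard error 0.10) for Gm14418, 0.89 (0.16) for Gm14419, 0.56 (0.10) for Gm14403, 0.55 (0.066) for Gm14322, 0.46 (0.12) for Gm14327, 0.43 (0.12) for Gm14412, 0.31 (0.084) for Zfp970, 0.30 (0.057) for Gm14295 and 0.14 (0.043) for Gm14410. These correspond to ratios from 1.10 for Gm14410 to 1.87 for Gm14418. Over all tested genes the median was 0.00, and 0.680% were called higher in Het at an adjusted p under 0.05. Gm14410 was the gene with the smallest difference inside the list, and Gm14296 (0.29, standard error 0.088) and Zfp972 (0.83, standard error 0.18) lie in the same window but outside the list. The list is thus not set by the size of the difference.

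The means of all 9 genes were higher in Het at each of the 5 ages, but single libraries overlapped in most cases. The number of genes for which all 5 Het libraries lay above all 5 WT libraries came to 2, 3, 4, 2 and 2, in order of age. Over all tested genes this held for 0.178%, 1.26%, 0.612%, 0.925% and 0.539% at the same ages. The same contrast chose the genes, so nothing is read from these counts. For no gene and no age did all WT libraries lie above all Het libraries. Without the library with Xist counts, the number at E14 stayed 2 and the number at E18 was 4, and without WT replicate 2 it stayed 4 at P7. Without Het replicate 3 at P70, the number at P70 was 4 in place of 2.

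Gm14418, with 8 finger patterns, was the only gene of the list whose Het and WT libraries were separate at each of the first 3 ages. At E14 its WT libraries, from replicate 1 to 5, held 1.23, 1.00, 0.781, 1.89 and 1.18 CPM and its Het libraries 2.44, 1.92, 2.85, 2.12 and 2.84 CPM. At E18 the WT values were 0.993, 1.46, 1.50, 0.939 and 0.699 CPM and the Het values 2.06, 2.01, 2.30, 2.06 and 2.74 CPM. At P7 they were 2.01, 1.72, 1.36, 1.54 and 1.57 CPM against 2.38, 3.07, 3.59, 3.56 and 2.93 CPM. At these ages the groups did not overlap, and the Het mean was 2.00, 2.00 and 1.90 times the WT mean. At P35 the WT libraries ran from 1.37 to 2.89 CPM and the Het libraries held 2.13, 2.15, 4.29, 3.11 and 4.96 CPM, so that replicates 1 and 2 fell within the WT range. At P70 the WT libraries lay between 1.69 and 2.08 CPM, and Het replicate 3, at 1.69 CPM, lay among them while the other 4 Het libraries held 3.54 to 4.27 CPM.

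Gm14322 also has 8 finger patterns and the same KRAB exon as Gm14418. Its WT libraries at E14 were tightly grouped, at 2.41, 2.25, 2.34, 2.19 and 2.25 CPM, below the Het libraries at 3.25, 2.63, 3.61, 3.06 and 3.92 CPM. At E18 the WT values of 0.993, 1.44, 1.75, 2.00 and 1.77 CPM lay below the Het values of 2.76, 3.04, 2.90, 2.39 and 3.54 CPM. The groups were also separate at P35, where the highest WT library held 5.03 CPM and the lowest Het library 5.08 CPM. At P7 and P70 they overlapped. The log2 fold change ran from 0.40 (standard error 0.14) at P35 to 0.88 (0.15) at E18.

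Gm14419, with 17 finger patterns, was among the lowest in level, with Gm14412 below it at the first 3 ages in WT, and had the highest biological coefficient of variation of the 9 (0.283). At E14 its Het libraries held 0.144, 0.101, 0.700, 0.455 and 0.559 CPM against 0.206, 0.163, 0.227, 0.0812 and 0.355 CPM in WT, so that 2 Het libraries lay within the WT range. At P35 the groups were far apart, with 1.93, 1.05, 1.23, 1.23 and 1.31 CPM in Het and 0.525, 0.718, 0.462, 0.403 and 0.519 CPM in WT, a ratio of means of 2.57. That was the largest ratio of any of the 9 genes at any age. At E18 the ratio was 1.25, with a log2 fold change of 0.33 and a standard error of 0.38.

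Gm14412, with 15 finger patterns, showed its difference mainly at the early ages, when its level was lowest. At E14 its Het libraries held 0.575, 0.253, 0.467, 0.329 and 0.210 CPM and its WT libraries 0.147, 0.244, 0.151, 0.135 and 0.165 CPM, which makes a log2 difference of 1.09 with a standard error of 0.30. At P7 the groups did not overlap, with Het at 0.438 to 0.595 CPM and WT at 0.270 to 0.431 CPM. At P35 and P70 the highest library was a WT library, at 2.42 and 2.59 CPM, and the log2 fold change was 0.27 (standard error 0.22) and 0.14 (0.22). The difference in its size between ages was not called by the interaction test given below.

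Gm14403, with 9 finger patterns, was separate at E18, where WT libraries ran from 0.523 to 1.20 CPM and Het libraries from 1.38 to 1.91 CPM. Gm14327, with no finger pattern in the coding sequence counted, was separate at P70. Its libraries held 0.873, 1.02, 0.534, 1.10 and 1.28 CPM in WT and 1.63, 1.38, 1.69, 1.45 and 1.49 CPM in Het. Gm14295, which has the most finger patterns, was separate at P70 as well, with 12.5 to 15.5 CPM in WT and 15.6 to 19.1 CPM in Het, a ratio of 1.28. Gm14410 was separate at P7, with WT libraries from 6.65 to 7.60 CPM and Het libraries from 7.85 to 9.39 CPM, and at E14 its log2 difference was 0.07 with a standard error of 0.097. Zfp970 was separate at no age, at P70 because of Het replicate 3 alone (5.34 CPM, the other 4 Het libraries 10.7 to 11.1 CPM and WT 7.28 to 8.67 CPM), although its log2 fold change was nearly constant, between 0.27 (standard error 0.20) at P7 and 0.34 (0.19) at P35.

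Placed in order, the 9 genes were not a run without gaps. Of 22 annotated protein-coding genes in the window, 17 passed the filter and 5 did not. The other 8 tested genes all had a log2 fold change above 0, with a median of 0.07, against a median of 0.46 for the 9. Zfp973 (0.08), Gm14305 (0.06), Gm14325 (0.07), Gm14326 (0.04), Zfp971 (0.06) and Zfp931 (0.02) lay within 0.08 of 0, and these 6 were at the ends of the window apart from Gm14325, which sits between Gm14322 and Gm14327. Within 1 Mb after the window, 0 of 5 tested genes were called by edgeR for genotype (0 at an unadjusted p under 0.05, 0 by limma-voom and 0 by DESeq2), with a median log2 fold change of 0.04. Within 1 Mb before it lie 13 annotated protein-coding genes, none of which passed the filter, so levels in that stretch are not analysed here. Genes with like upstream sequence go on before the window, as given above for Zfp967, so the window does not mark where such genes begin.

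**Figure D2:**
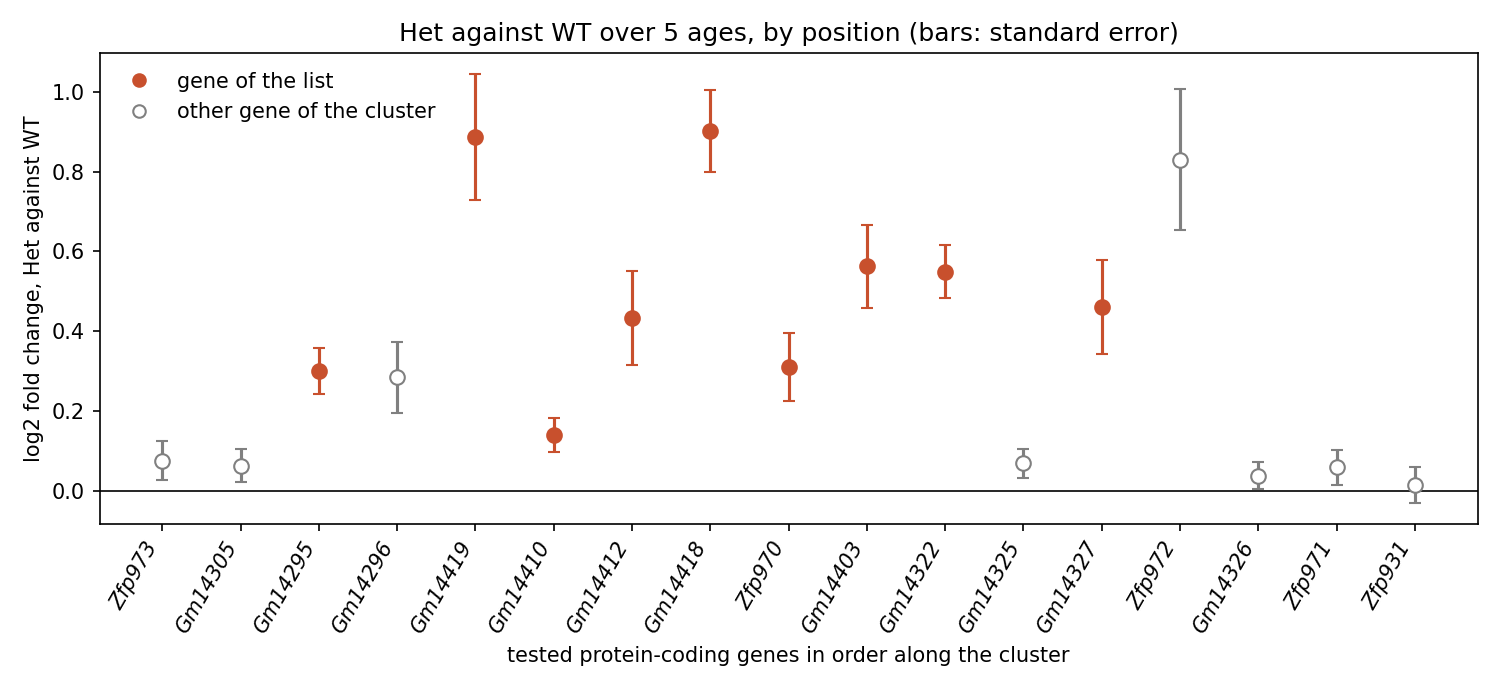
The log2 fold change of Het against WT over all ages (vertical axis, bars for the standard error) is plotted for the 17 tested protein-coding genes in their order along the cluster, filled for the 9 genes and open for the others. The 9 genes lie between 0.14 and 0.90, and the open points lie near 0 apart from Gm14296 and Zfp972 at 0.29 and 0.83.

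Age was not used in choosing the genes, and all 9 changed with age in each genotype. The joint test of the 4 age differences was called for 9 of 9 genes in WT libraries (adjusted p from 2.80e-21 for Gm14295 to 0.00273 for Gm14418, edgeR's quasi-likelihood test, adjusted after Benjamini and Hochberg over 16330 genes). It was called for 9 of 9 in Het libraries, with adjusted p from 4.20e-21 for Gm14295 to 0.0294 for Gm14418. The Het call of Gm14418 did not hold without replicate 1, 2 or 4 at E18 or replicate 1 or 4 at P70 (adjusted p from 0.0583 to 0.0602, edgeR), nor with scaling by library size alone (0.142). Age changed most of the transcriptome, since 95.0% of all tested genes were called in WT and 95.1% in Het. A call of all 9 genes is therefore close to the background.

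From E14 to E18, 3 of 9 genes were called in WT, all lower, against 34.1% of all tested genes called lower and 65.9% called in either direction, so that the share called lower was near the background. Zfp970 fell by 0.71 on the log2 scale (standard error 0.20, adjusted p = 0.00188, edgeR), from 4.28 to 6.31 CPM among the E14 libraries to 2.86 to 4.02 CPM at E18. Gm14322 fell by 0.52 (standard error 0.15, adjusted p = 0.00229) and Gm14403 by 0.61 (standard error 0.25, adjusted p = 0.0293). The call for Gm14403 did not hold without the libraries with Xist counts, where the log2 fold change was -0.43 (adjusted p = 0.164, edgeR). Without WT replicate 5 at E14, Gm14295 was called higher at E18 (0.33, adjusted p = 0.0361), where with all libraries it stood at 0.18 (adjusted p = 0.267).

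In Het, 1 of 9 was called from E14 to E18, against 32.5% of all tested genes called lower and 64.5% called in either direction. Zfp970 fell by 0.71 (standard error 0.20, adjusted p = 0.00170, edgeR), the same size as in WT. Gm14322 and Gm14403 had log2 fold changes of -0.17 (standard error 0.14) and -0.13 (0.23) in Het and were not called. That they were called in WT and not in Het does not show that the genotypes differ, and the interaction test below gave no call.

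From E18 to P7, after birth, most of the genes rose. In WT 7 of 9 were called, all higher, and in Het 7 of 9, all higher, against 33.9% and 32.7% of all tested genes called higher and 67.3% and 67.8% called in either direction. The median over the 9 genes was 0.73 in WT and 0.58 in Het, where the median over all tested genes was 0.00 in WT and -0.01 in Het. The largest rise in WT was that of Gm14295, by 1.43 (standard error 0.14, adjusted p = 1.54e-12, edgeR), from 3.03 to 4.51 CPM among WT libraries at E18 to 7.68 to 11.8 CPM at P7. In Het it rose by 1.27 (standard error 0.13). Gm14327 rose by 1.35 (standard error 0.28) in WT and by 1.41 (0.27) in Het, and Gm14419 by 0.98 (0.37) and 1.43 (0.35). Gm14410, Gm14403 and Gm14322 also rose in both genotypes. The Het calls of Gm14403 (adjusted p = 0.0329, edgeR) and Gm14322 (0.0375) were lost under 9 and 7 of 59 alternatives.

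A pair of the genes were called at this step in 1 genotype alone. Gm14412 rose in Het by 0.64 (standard error 0.27, adjusted p = 0.0333, edgeR), with 0.51 (standard error 0.29, adjusted p = 0.116) in WT. Gm14418 rose in WT by 0.55 (standard error 0.24, adjusted p = 0.0432), with 0.48 (standard error 0.23, adjusted p = 0.0654) in Het. Both calls lay close to the threshold. That of Gm14418 in WT was lost under 11 of 59 alternatives, 7 of them single libraries left out (adjusted p up to 0.145), among them WT replicate 2 at P7 (0.53, adjusted p = 0.0671, edgeR). That of Gm14412 in Het was lost under 7 of 59, 5 of them single libraries left out (adjusted p up to 0.182). Zfp970 was called in neither genotype, at 0.23 (standard error 0.20) and 0.18 (0.20).

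From P7 to P35 the same 5 genes rose in WT and in Het, namely Gm14295, Gm14412, Zfp970, Gm14403 and Gm14322. All calls were higher, 5 of 9 in each genotype, against 32.6% of all tested genes called higher in WT and 34.5% in Het, and 67.0% and 67.8% called in either direction. Gm14412 rose most, by 2.23 in WT (standard error 0.25, adjusted p = 1.76e-10, edgeR) and by 1.93 in Het (standard error 0.24, adjusted p = 2.27e-09). Its WT libraries went from 0.270 to 0.431 CPM at P7 to 0.994 to 2.42 CPM at P35, with no overlap. Gm14403 rose by 1.16 (standard error 0.23) in WT and 0.85 (0.23) in Het, Zfp970 by 0.74 (0.20) and 0.82 (0.20), Gm14322 by 0.65 (0.14) and 0.57 (0.14), and Gm14295 by 0.46 (0.13) and 0.52 (0.13). Gm14410, with 0.11 (standard error 0.096) in WT and 0.09 (0.095) in Het, was not called. Gm14419 was not called either, with 0.01 in WT and 0.58 in Het (adjusted p = 0.0978, edgeR), but its Het step was called by limma-voom and without Het replicate 3 at P7 (lowest adjusted p = 0.0421).

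From P35 to P70 no gene was called in either genotype by edgeR, 0 of 9 in each, nor by limma-voom or DESeq2, and 0 of 9 had an unadjusted p under 0.05 in each genotype. The background was also low at this step, with 1.06% of all tested genes called in WT and 2.98% in Het. The log2 fold changes ran from -0.13 (Gm14418) to 0.36 (Gm14403) in WT and from -0.19 (Gm14419) to 0.32 (Gm14327) in Het.

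**Figure D3:**
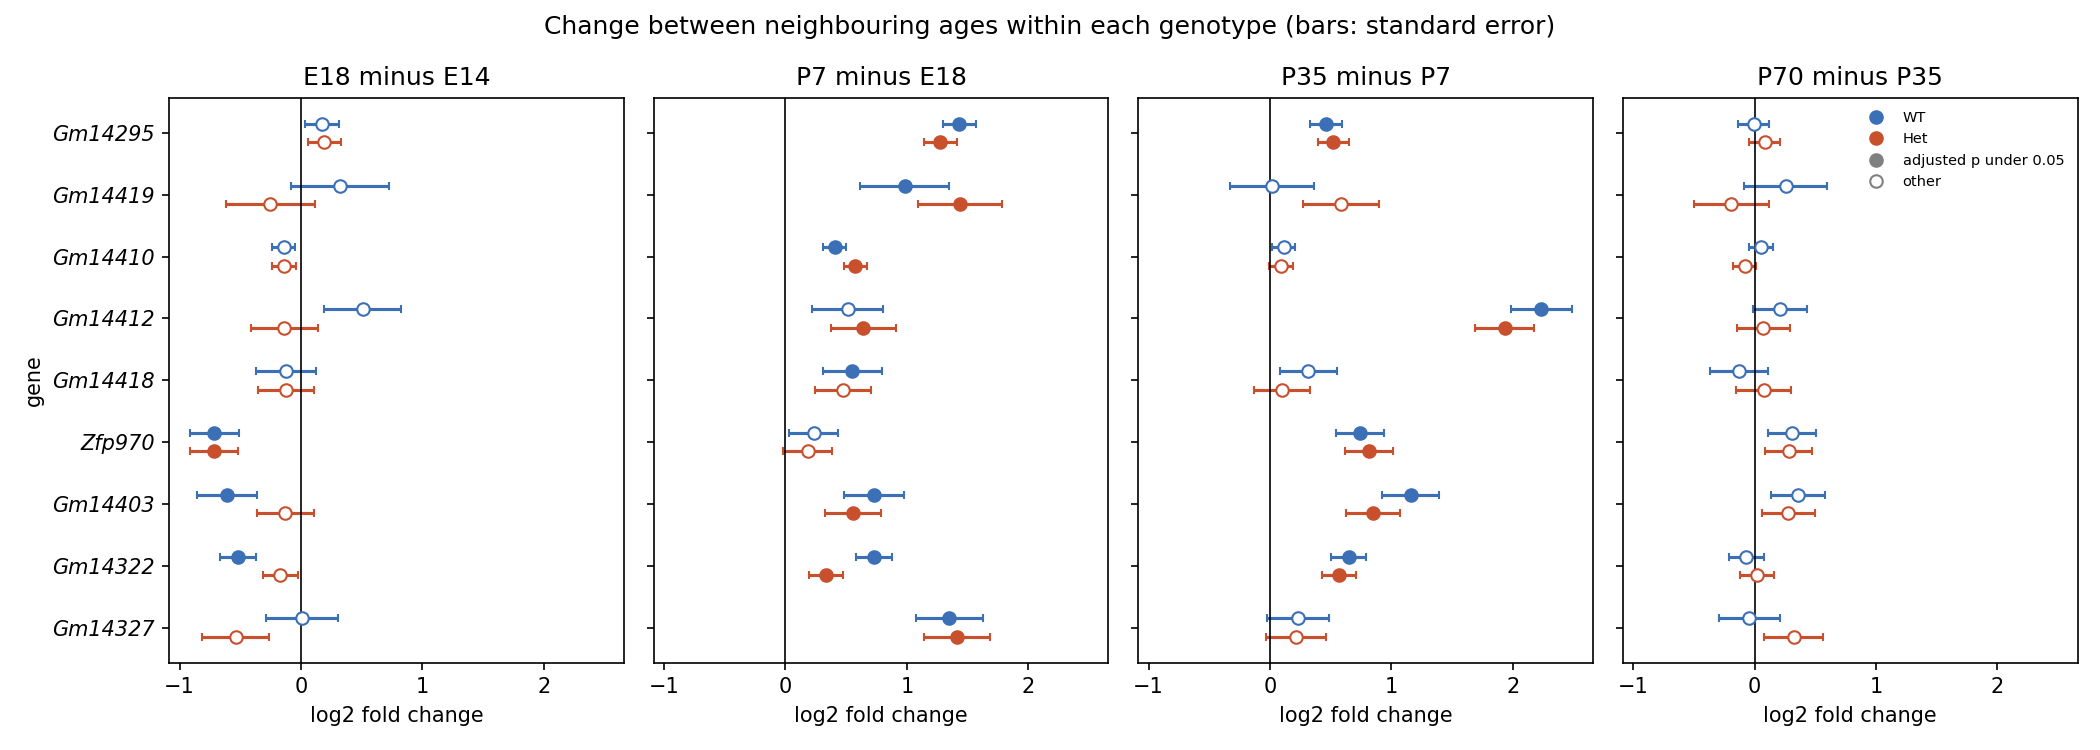
Each panel plots the log2 fold change between neighbouring ages (horizontal axis) for each gene (vertical axis), WT in blue and Het in red, with bars for the standard error and filled points for an adjusted p under 0.05. The filled points lie left of 0 between E14 and E18 and right of 0 at the following steps up to P35, and no point is filled between P35 and P70.

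Over the whole course, the genes followed different paths. Gm14295, Gm14419, Gm14410 and Gm14327 made most of their rise by P7. Gm14412 stayed low up to P7, with group means of 0.169 to 0.346 CPM in WT and 0.331 to 0.517 CPM in Het, and rose between P7 and P35 to 1.64 and 1.98 CPM. Zfp970 went down before birth and up after P7. Mean levels of Zfp970 in WT were 5.28 ± 0.81, 3.22 ± 0.46, 3.79 ± 0.71, 6.34 ± 1.63 and 7.86 ± 0.56 CPM (SD, n = 5) from E14 to P70. In Het they were 6.58 ± 0.57, 4.01 ± 0.63, 4.55 ± 0.97, 8.04 ± 2.92 and 9.77 ± 2.48 CPM. The steps of Zfp970 were called in the same places in both genotypes.

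Whether the genotype difference itself varied with age was asked by a joint test of the 4 interaction terms. None of the 9 genes was called by edgeR, limma-voom or DESeq2, and none had an unadjusted p under 0.05. The smallest adjusted p was 0.904, for Gm14412 (unadjusted p = 0.140, edgeR). Over all 16330 genes, 0% were called by edgeR and by limma-voom, 21 genes by DESeq2, and 1098 had an unadjusted p under 0.05. The standard errors of the differences at single ages ran from 0.096 for Gm14410 at P35 to 0.39 for Gm14419 at E14. The size of variation with age that could be detected with 5 libraries a group was not measured. The lack of calls therefore does not show that the differences were constant.

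Mice of the same age and genotype differed from each other in these genes, and some genes differed together. For each library the log2 CPM of each gene was taken minus the mean of its age and genotype group, which removes both the difference that chose the genes and the course with age. Correlations of these departures were computed for all 36 pairs of genes over 50 libraries. The permutation p is two-sided, from 100000 shuffles of libraries within their groups, adjusted by the Benjamini-Hochberg method over the 36 pairs. Of the 36 pairs, 26 had r above 0, and the median r was 0.08, against a median of 0.00 over all pairs within an evenly spaced subset of the tested genes. The lowest was -0.21, between Gm14418 and Gm14327.

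Gm14418 and Zfp970, whose start coordinates lie 77.6 kb apart, had Pearson's r = 0.59 (permutation p = 0.00139, adjusted p = 0.0250) and Spearman's rho = 0.47 (permutation p = 0.00296, adjusted p = 0.0533). Without the 2 libraries farthest from the median of Gm14418, r was 0.55. Gm14295 and Gm14410 had r = 0.57 (permutation p = 5.00e-05, adjusted p = 0.0018) and rho = 0.60 (permutation p = 5.00e-05, adjusted p = 0.0018), and r = 0.50 without the 2 farthest libraries. These were the pairs with an adjusted p under 0.05 for r. The neighbours Zfp970 and Gm14403 had r = 0.47 and rho = 0.34 (permutation p = 0.00671 and 0.0374), Gm14403 and Gm14322 had r = 0.42 and rho = 0.36 (permutation p = 0.00769 and 0.0158), and Gm14295 and Gm14419 had r = 0.54 and rho = 0.40 (permutation p = 0.00734 and 0.0184), each with an adjusted p of 0.0554 for r. Without the 2 farthest libraries these 3 values of r were 0.30, 0.38 and 0.42. Gm14295 and Gm14419 share transcript stretches as given above, whereas no 150-base stretch of Gm14403 occurred in another gene. The share of the likeness in the first pair that comes from shared sequence was not tested.

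**Figure D4:**
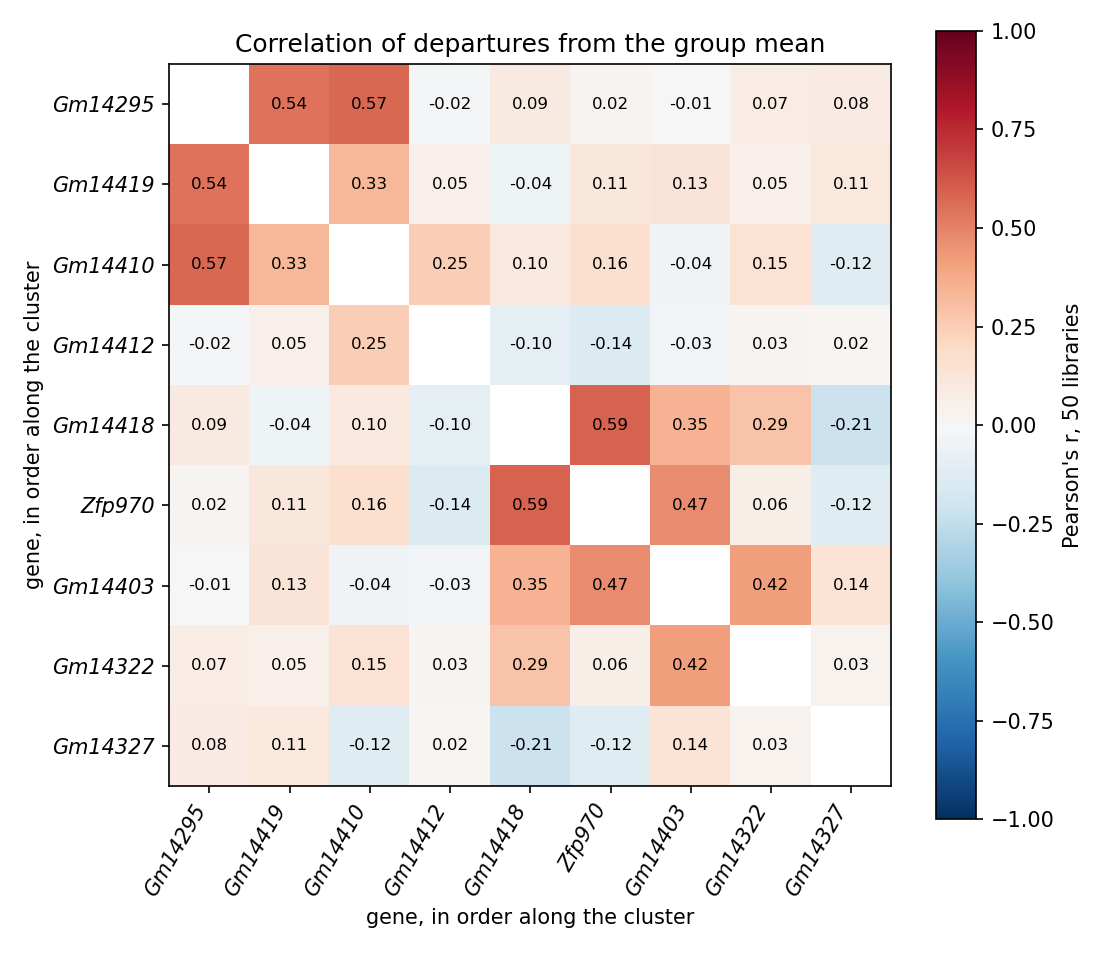
Each cell gives Pearson's r between 2 of the 9 genes, in order along the cluster on both axes, of the log2 CPM minus the group mean over 50 libraries. The cells of Gm14418, Zfp970 and Gm14403 hold 0.35 to 0.59 and those of Gm14295, Gm14419 and Gm14410 hold 0.33 to 0.57, while cells between these sets lie between -0.04 and 0.16.

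The values of r among Gm14418, Zfp970 and Gm14403 were higher in Het than in WT libraries. Within Het libraries r was 0.84 for Gm14418 and Zfp970, 0.76 for Gm14418 and Gm14403 and 0.66 for Zfp970 and Gm14403, and within WT libraries it was 0.22, 0.06 and 0.34. The other pairs given above with a permutation p did not all follow this. Gm14295 and Gm14419 had r = 0.74 in Het and 0.31 in WT. Gm14403 and Gm14322 went the other way, with 0.10 in Het and 0.58 in WT. Gm14295 and Gm14410 had 0.57 in each genotype. Whether r differed between the genotypes was not tested. At P70, Zfp970 stood at 10.9, 11.1, 5.34, 10.8 and 10.7 CPM in Het replicates 1 to 5, so that replicate 3 lay below all 5 WT libraries of that age (7.28 to 8.67 CPM). The same library was lowest of its group for Gm14418 (1.69 CPM, the others 3.54 to 4.27 CPM) and for Gm14403 (3.44 CPM, the others 4.70 to 6.60 CPM). It was not low for Gm14322, at 5.85 CPM among 4.67 to 6.13 CPM.

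At P35 a similar division ran within the Het group. Replicates 1 and 2 held 4.65 and 5.23 CPM of Zfp970 where replicates 3, 4 and 5 held 9.02 CPM or more. The same replicates were the lowest for Gm14403, at 3.12 and 2.71 CPM against 4.95 to 5.37 CPM, and for Gm14418, at 2.13 and 2.15 CPM against 3.11 to 4.96 CPM. In WT at P35, replicate 1 was lowest for all 3 genes, with 3.50 CPM of Zfp970 (others 6.60 to 7.65 CPM), 1.60 CPM of Gm14403 (others 3.17 to 4.04 CPM) and 1.37 CPM of Gm14418 (others 1.56 to 2.89 CPM). In these 4 libraries Gm14295 and Gm14410 were not set apart in the same way.

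**Figure D5:**
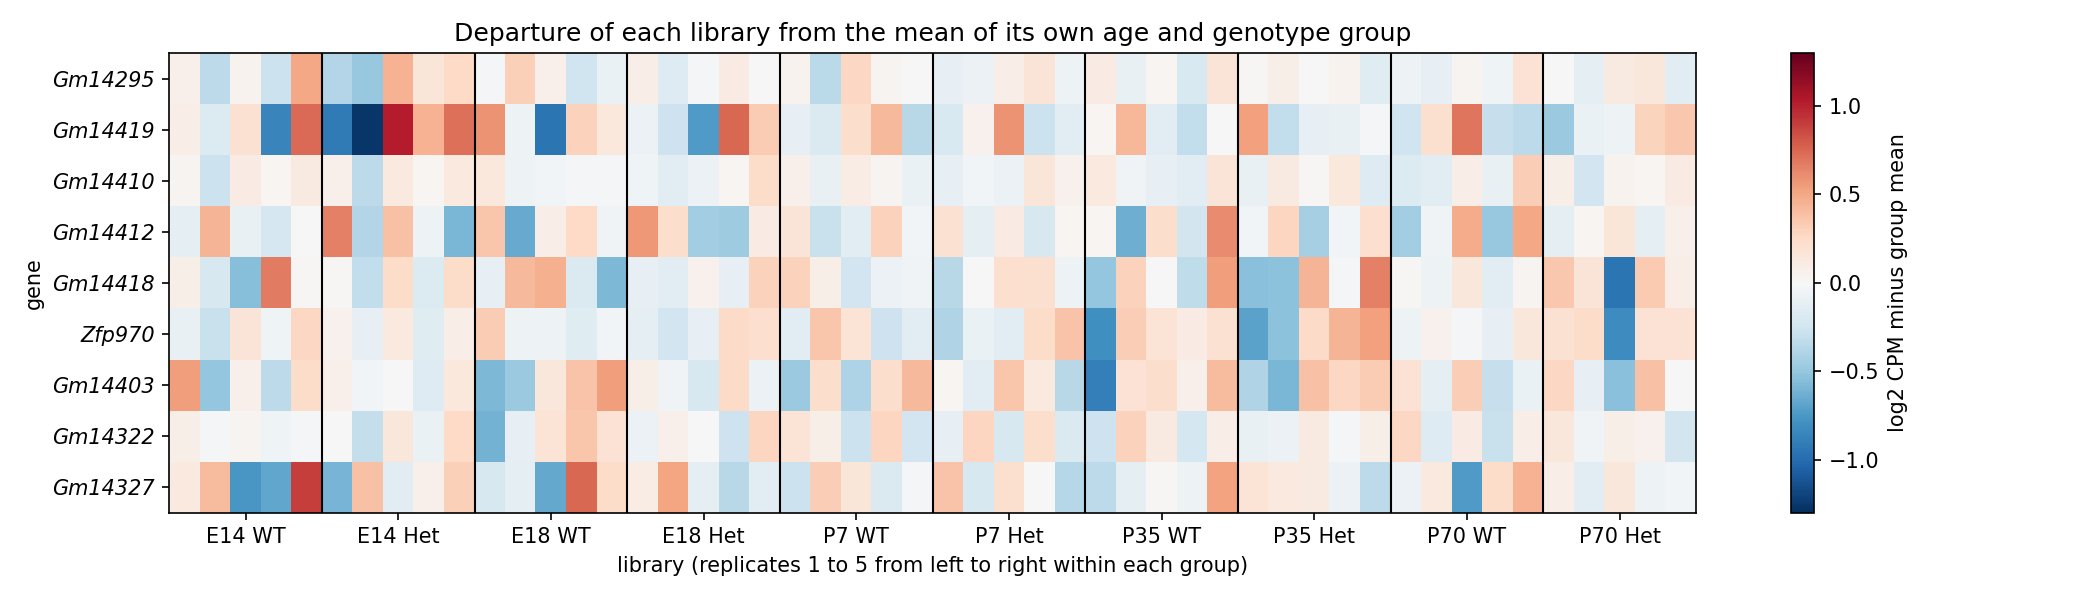
The colour gives the log2 CPM of a gene (rows, in order along the cluster) in a library (columns, replicates 1 to 5 within each group) minus the mean of its age and genotype group, blue for lower and red for higher. The rows of Gm14418, Zfp970 and Gm14403 are blue together in WT replicate 1 and Het replicates 1 and 2 at P35 and in Het replicate 3 at P70, where Zfp970 holds 3.50, 4.65, 5.23 and 5.34 CPM.

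Substrain was looked at only through the level of Nnt, a mitochondrial transhydrogenase gene that carries a deletion in C57BL/6J. The Nnt count is a total over the exons of the gene, so it does not show which mice carried the deletion. Nnt transcripts were present in all 50 libraries, between 9.67 and 44.6 CPM, and were 0.05 higher on the log2 scale in Het, within the spread of the libraries (standard error 0.060, adjusted p = 0.801 by edgeR). The substrain origin of the window of the cluster and the part of substrain in the levels of the 9 genes were not tested.

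The genes outside the window whose departures were most like the mean departure of the 9 were Tmem256 (r = 0.60), Uxt (0.60), Ggh (0.57), Asdurf (0.56) and Mycbp (0.56), over 50 libraries, given as a description since they are the highest of all tested genes. Inside the window, Gm14325 (0.38), Zfp931 (0.37), Gm14326 (0.37), Gm14305 (0.23) and Gm14296 (0.17) came first among genes that were not of the 9.

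Transcripts of the cofactors of KRAB zinc finger proteins showed no genotype change that passed the test. Of 25 listed cofactors 24 were tested, and 0 were called by edgeR, limma-voom or DESeq2, against 4.43% of all tested genes called in either direction by edgeR. At an unadjusted p under 0.05 there were 4 of 24, against 2360 of the 16330 tested genes. By edgeR, Trim28, the corepressor bound by KRAB domains, stood at -0.01 (standard error 0.023, adjusted p = 0.926) in Het against WT on the log2 scale. Setdb1, the histone methyltransferase it recruits, also stood at -0.01 (standard error 0.018, adjusted p = 0.905). The median over the list was -0.01. Along the ages Trim28 ran from 548 ± 12.9 CPM (SD, n = 5) in WT at E14 to 122 ± 4.20 CPM at P70, and Setdb1 from 130.3 ± 6.78 CPM to 47.5 ± 2.01 CPM.

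Of 386 tested genes outside the window named Zfp, Zkscan, Zscan or Rslcan, 1 (0.259%) was called higher and 19 (4.92%) lower, and the median log2 fold change was -0.01. The one called higher was Zfp92, named after its value was seen. Over all tested genes, edgeR called 111 (0.680%) higher and 612 (3.75%) lower, and both shares of this list were near that background. The counts over all tested genes were 200 higher and 623 lower with DESeq2, and 97 and 679 with scaling by library size alone. No cell type list held a gene called by edgeR. The lists for cortex, progenitors, interneurons, astrocytes, the oligodendrocyte lineage, microglia, endothelium, striatum, choroid plexus and erythroid cells held 0 called genes by edgeR and by limma-voom, and DESeq2 called 1 of the 3 choroid plexus genes. By edgeR, 2 choroid plexus genes had an unadjusted p under 0.05 and no gene of the other lists did. The 3 choroid plexus genes had log2 fold changes in Het from -2.57 to -0.03, with a median of -1.36, the value farthest from 0 of any of these lists. Their summed level ran from 0.382 to 376 CPM in WT and from 0.860 to 443 CPM in Het at E14, and it reached 608 CPM in WT replicate 2 at P7. Their part in the levels of the 9 genes was not tested. The 6 cortical markers summed to 713 to 2520 CPM in WT and 1352 to 2588 CPM in Het libraries.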

How the data were processed

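RNA of 50 mouse frontal cortex libraries was analysed from the read counts per gene that the authors deposited. Per the labels and file headers, the authors trimmed reads with Trimmomatic, checked them with FastQC, aligned them to GRCm38 by STAR and obtained exon counts for the Ensembl 102 annotation with featureCounts 1.4.6-p2, without strand and for each gene a fragment overlaps. Names came from GENCODE, for 55141 of 55487 genes. Protein-coding genes kept by filterByExpr (minimum count 10) were scaled by TMM and tested with edgeR 4.0.16 in R 4.3.3 by quasi-likelihood tests, with Benjamini-Hochberg adjustment and a threshold of 0.05. Alternatives were limma-voom 3.58.1, DESeq2 1.42.0, other scalings and filters, RNA integrity as a covariate, a replicate block and leaving out libraries. The tests were tried on simulated data first. Replicates are labelled as separate samples, and p-values measure the spread between them. Genes named in the text are the 9 genes, all tested genes of the window, called cofactors with Trim28 and Setdb1, the 5 most alike genes outside and inside the window, Setd1a and Nnt. Xist, Zfp92, Zfp967 and Gm14308 were named outside this rule. The members and lists were chosen with earlier results of these data known. RPKM was computed here from the scaled counts and the exonic bases in the files.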

Additional observations from a re-analysis of the deposited data

Results flagged for a closer look

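For each of the 9 genes and each of the 10 groups of 5 libraries, 90 in all, the gap between the lowest or highest library and its nearest neighbour was set against the range of the group, and 9 groups held a library that stood apart by Dixon's critical value of 0.71. Chance sets apart about 1 group in 20. Het replicate 3 at P70 stood apart in 2 genes, at 5.34 CPM of Zfp970, where the other 4 libraries held 10.7 to 11.1 CPM, and at 1.69 CPM of Gm14418, where they held 3.54 to 4.27 CPM. WT replicate 1 at P35 was low in Zfp970, at 3.50 CPM where the others held 6.60 to 7.65 CPM. WT replicate 1 at E18 was high in Zfp970 (4.02 CPM, the others 2.86 to 3.12 CPM) and in Gm14410 (5.91 CPM, the others 5.13 to 5.32 CPM). Gm14410 was also low in WT replicate 2 at E14 (4.88 CPM, the others 6.01 to 6.41 CPM), in Het replicate 2 at E14 (4.88 CPM, the others 6.29 to 6.77 CPM) and in Het replicate 2 at P70 (7.11 CPM, the others 8.61 to 9.16 CPM). Gm14412 was high in WT replicate 2 at E14, at 0.244 CPM where the others held 0.135 to 0.165 CPM.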

How the results depend on the processing

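The genotype log2 fold change of each of the 9 genes stayed above 0 under every alternative that gave a value and without each library in turn. The same difference in the same libraries chose the genes, so this describes the choice and is no support for it. The range for Gm14418 was 0.87 to 0.94 and for Gm14410 0.13 to 0.16 without single libraries. Genes called for genotype numbered 723, and 637 to 787 without single libraries, and 0 for the interaction, where single libraries left out gave 0 to 5, leaving out both libraries with Xist counts gave 12, DESeq2 gave 21 and the replicate block gave 3, with none of the 9 genes among any of them. A filter at 10 CPM kept only Gm14295 and Zfp970 of the 9, the latter through Het libraries alone (no WT library over 8.67 CPM), so that 2 were called with age in WT and 2 in Het, and 4 steps in WT and 4 in Het. Without single libraries, genes called with age numbered 9 in WT and 8 to 9 in Het, and steps called 13 to 15 of 36 in WT (15 with all libraries) and 10 to 14 in Het (13 with all libraries). Of the 28 called steps, 22 held under every alternative that tested the gene. The 6 others lost the call under at least 1, with the highest adjusted p given for each (edgeR or limma-voom). From E18 to P7 in WT, Gm14419 lost it without replicate 3 at E18 or 4 at P7 (0.0667), and Gm14418 under 4 other settings or without replicate 1, 4 or 5 at E18 or 1, 2, 4 or 5 at P7 (0.145). From E14 to E18 in WT, Gm14403 lost it with limma-voom, without replicate 1 or 5 at E14 or 1 or 2 at E18, or without both libraries with Xist counts (0.164). From E18 to P7 in Het, Gm14412 lost it under 2 other settings or without replicate 3 or 4 at E18 or 1, 3 or 5 at P7 (0.182), Gm14403 under 3 or without replicate 2, 3 or 5 at E18 or 1, 3 or 4 at P7 (0.106), and Gm14322 under 2 or without replicate 1, 3 or 4 at E18 or 2 or 4 at P7 (0.141). Of the steps not called, 6 were called under at least 1 alternative. No call turned its direction, and the cause of these changes was not tested. Among steps not called, that of Gm14419 from P7 to P35 in WT went from 0.01 to -0.04 without WT replicate 2 at P7. Same-numbered WT and Het libraries deviated together (r over 0.1) in 9 of 25 pairs, which does not show that the numbers pair the mice. With the replicate block 785 genes were called for genotype, 9 genes with age in WT and 9 in Het, and 14 and 13 steps. The number of genes with separate groups, without single libraries or with other scalings, ran from 2 to 3 at E14, 3 to 4 at E18, 4 to 5 at P7, 2 to 3 at P35 and 2 to 4 at P70. A prior count of 0.5 in place of 2 left r at 0.58 for Gm14418 and Zfp970. Depth limits Gm14419, Gm14412 and Gm14327 most, which held as few as 3, 5 and 6 fragments in a library.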
